A study of Mus musculus with 20 samples.

Results

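The genes described here are 9 secreted antagonists of Wnt signalling: Dkk1, Dkk2, Dkk3, Sfrp1, Sfrp2, Sfrp4, Frzb, Wif1 and Sostdc1. They were chosen by gene symbol, with earlier results of these data known, and are 9 of the 19936 genes measured. Sfrp5 and Dkk4, of the same families, were also measured and are counted with the other inhibitors below. Each was represented by 1 probe set, so no gene rested on a choice among several. The study measured total RNA of single mouse limbs at embryonic day 13.5 on Affymetrix ST arrays, with 1 limb on each of 20 arrays. All embryos were of strain 129Sv and were either wild type or homozygous for a loss-of-function allele of Lmx1b (Lmx1b -/-, called knockout below). There were 4 groups of 5 arrays: wild-type forelimbs (replicates 1 to 5), wild-type hindlimbs (replicates 6 to 10), knockout forelimbs (replicates 1 to 5) and knockout hindlimbs (replicates 6 to 10). Left and right limbs occurred in every group. The groups ask what the loss of Lmx1b does in each limb type and what distinguishes a hindlimb from a forelimb. Whole limbs were used, so a lower value can mean fewer cells of a type or less RNA per cell, and these cannot be told apart. No label ties a limb to its embryo; some limbs may share one, and p-values then reflect the spread among arrays, part of which may be technical.

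Wnt proteins signal through frizzled receptors together with the co-receptors Lrp5 and Lrp6, and secreted antagonists limit that signal outside the cell. Proteins of the Sfrp family, of which Frzb is one, and Wif1 bind the Wnt ligand itself, while Dkk1, Dkk2 and Sostdc1 bind the co-receptors. In the limb, Wnt7a from the dorsal ectoderm induces Lmx1b, a LIM-homeodomain transcription factor that gives the dorsal mesenchyme its identity, and Wnt antagonists mark mesenchyme, cartilage, joints and ectoderm in distinct patterns.

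The arrays matched their labels. Lmx1b averaged 6.30 ± 0.127 (log2 intensity, SD, n = 5) in wild-type and 5.72 ± 0.0785 in knockout forelimbs, and 6.45 ± 0.0826 against 5.92 ± 0.114 in hindlimbs. All 10 knockout arrays lay below every wild-type array of their limb type; the sources used here do not give where this probe set lies relative to the disrupted part of the gene. The forelimb factor Tbx5 was lower in hindlimbs by 3.77 in wild type and 4.08 in knockouts on the log2 scale, and the hindlimb factor Pitx1 was higher by 3.09 and 2.92. Array medians ran from 4.84 to 4.99. All 5 wild-type forelimbs were male by their sex-linked transcripts, against 2 of 5 knockout forelimbs and 3 of 5 in each hindlimb group.

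The promoters printed are those of Sfrp2, Frzb and Dkk2. Sfrp2 passed the limb-type test in each genotype. Frzb passed only in the average over both genotypes, which was added after the values were seen. Dkk2 is shown beside them with lower hindlimb means that did not pass. The sequences are RefSeq's, on build GRCm38.p6, from 250 bases before to 50 bases after the annotated start, read 5′ to 3′ on the gene's strand. They lie at chr3:83766071-83766370 (plus strand) for Sfrp2, chr2:80447347-80447646 (minus strand) for Frzb and chr3:132085042-132085341 (plus strand) for Dkk2. Capitals mark matches to 5 short motifs searched on both strands.
Sfrp2: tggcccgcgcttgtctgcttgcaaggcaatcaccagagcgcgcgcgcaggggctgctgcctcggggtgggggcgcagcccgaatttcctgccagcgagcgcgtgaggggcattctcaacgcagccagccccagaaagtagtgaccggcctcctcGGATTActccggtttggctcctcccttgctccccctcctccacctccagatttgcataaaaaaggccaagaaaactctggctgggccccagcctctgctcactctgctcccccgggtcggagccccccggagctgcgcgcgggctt
Frzb: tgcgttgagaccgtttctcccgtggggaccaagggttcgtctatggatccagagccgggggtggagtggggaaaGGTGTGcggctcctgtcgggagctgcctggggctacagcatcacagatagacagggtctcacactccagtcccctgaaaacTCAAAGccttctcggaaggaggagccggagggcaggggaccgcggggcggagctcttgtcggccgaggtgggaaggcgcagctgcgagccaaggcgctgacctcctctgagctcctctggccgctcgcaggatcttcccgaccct
Dkk2: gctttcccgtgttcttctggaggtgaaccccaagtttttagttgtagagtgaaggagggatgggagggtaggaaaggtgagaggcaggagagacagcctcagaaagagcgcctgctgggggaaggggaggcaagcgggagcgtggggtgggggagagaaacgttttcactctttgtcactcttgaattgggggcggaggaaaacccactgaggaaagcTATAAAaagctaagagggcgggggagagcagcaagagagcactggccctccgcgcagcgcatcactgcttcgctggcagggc

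In the Sfrp2 window the capitals are GGATTA, the reverse complement of the Pitx-type homeodomain site TAATCC, at position -96 relative to the start. That motif occurred in 7.06% of 32851 mouse promoters of this length and in 1 of the 5 antagonist promoters that the RefSeq table held (Sfrp2, Frzb, Dkk2, Wif1 and Dkk1). In the Frzb window the capitals are TCAAAG, the reverse complement of the TCF/LEF core CTTTGA, at position -95, and the T-box half-site GGTGTG at position -176. These 2 motifs occurred in 16% and 19% of all promoters. The Dkk2 window held a TATA box, TATAAA, at position -32, a motif present in 13.6% of promoters. No match to the LIM-homeodomain core TAATTA, found in 5.29% of promoters, lay in any of the 5 windows, which says only that these letters are not there. The motifs do not overlap one another, and the matches are descriptions of sequence, not of binding. The Sfrp2 and Frzb windows were rich in G and C (66% and 64.7%, against 57.7% for Dkk2 and a median of 52.7% over all promoters).

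Sfrp2, the secreted frizzled-related protein that binds Wnt ligands, had the largest limb-type difference of the 9 antagonists and was higher in hindlimbs with and without Lmx1b. In wild-type forelimbs its log2 intensities were 9.61, 9.58, 9.46, 9.38 and 9.25, and in wild-type hindlimbs 10.15, 10.09, 10.21, 10.12 and 10.13. Every hindlimb lay above every forelimb, a separation seen in the same direction in 1.78% of all genes, and the hindlimb values were close together. The rise was 0.68 (SE 0.0997, 95% interval 0.48 to 0.89, 1.61-fold, limma adjusted p = 0.000420), the 38th smallest p of all genes tested. In knockouts the forelimbs read 9.60, 9.23, 9.46, 9.77 and 9.61, and the hindlimbs 9.73, 10.24, 10.11, 10.26 and 10.18. There, 4 of 5 hindlimbs lay above all forelimbs, and the exception was hindlimb replicate 6. The rise was 0.57 (SE 0.0997, 95% interval 0.36 to 0.78, 1.49-fold, adjusted p = 0.00643). Without knockout hindlimb replicate 6 it was 0.66 (adjusted p = 0.000342).

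Sfrp2 was the only one of the 9 antagonists to pass the test in either limb-type comparison, against 0.772% of all genes called higher in wild-type hindlimbs and 0.176% in knockout hindlimbs (3.26% and 0.617% called in either direction). Its limb-type difference was 0.11 smaller in knockouts (SE 0.141, 95% interval of the change -0.41 to 0.18), which did not pass. Over both limb types, knockouts differed from wild types by 0.02 (SE 0.0705, adjusted p = 0.937). Averaged over both genotypes, hindlimbs exceeded forelimbs by 0.63 (SE 0.0705, 95% interval 0.48 to 0.77, adjusted p = 1.02e-05). This average and its test were added after the values were seen.

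Transcripts of several tissues moved with limb type in the same arrays. The mean log2 intensity of 16 muscle genes ran from 7.89 to 8.40 in wild-type forelimbs and from 7.09 to 7.60 in wild-type hindlimbs, without overlap. All 16 were called lower in wild-type hindlimbs and 2 of 16 in knockout hindlimbs, where the list averaged 7.37 ± 0.163 against 7.74 ± 0.180 in forelimbs. With the muscle mean as a covariate the Sfrp2 rise was 0.55 in wild type and 0.50 in knockouts and did not pass in either (adjusted p = 0.734 and 0.151), in a fit that called 11 genes of all tested in wild type. Of the osteoblast list 6 of 9 genes were lower in wild-type hindlimbs (median change -0.63), of the tendon list 4 of 10 (median -0.61) and of the macrophage list 2 of 9 (median -0.32), against 1 of 9, 1 of 10 and 0 of 9 in knockout hindlimbs (limma). The part of these 3 lists in the Sfrp2 difference was not tested, and that of muscle cannot be told apart from limb type in wild type. In knockouts the Sfrp2 call was also lost with male arrays only (0.48, adjusted p = 0.705) and with the forelimb and hindlimb knockouts fitted alone (0.57, adjusted p = 0.0908).

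**Figure D1:**
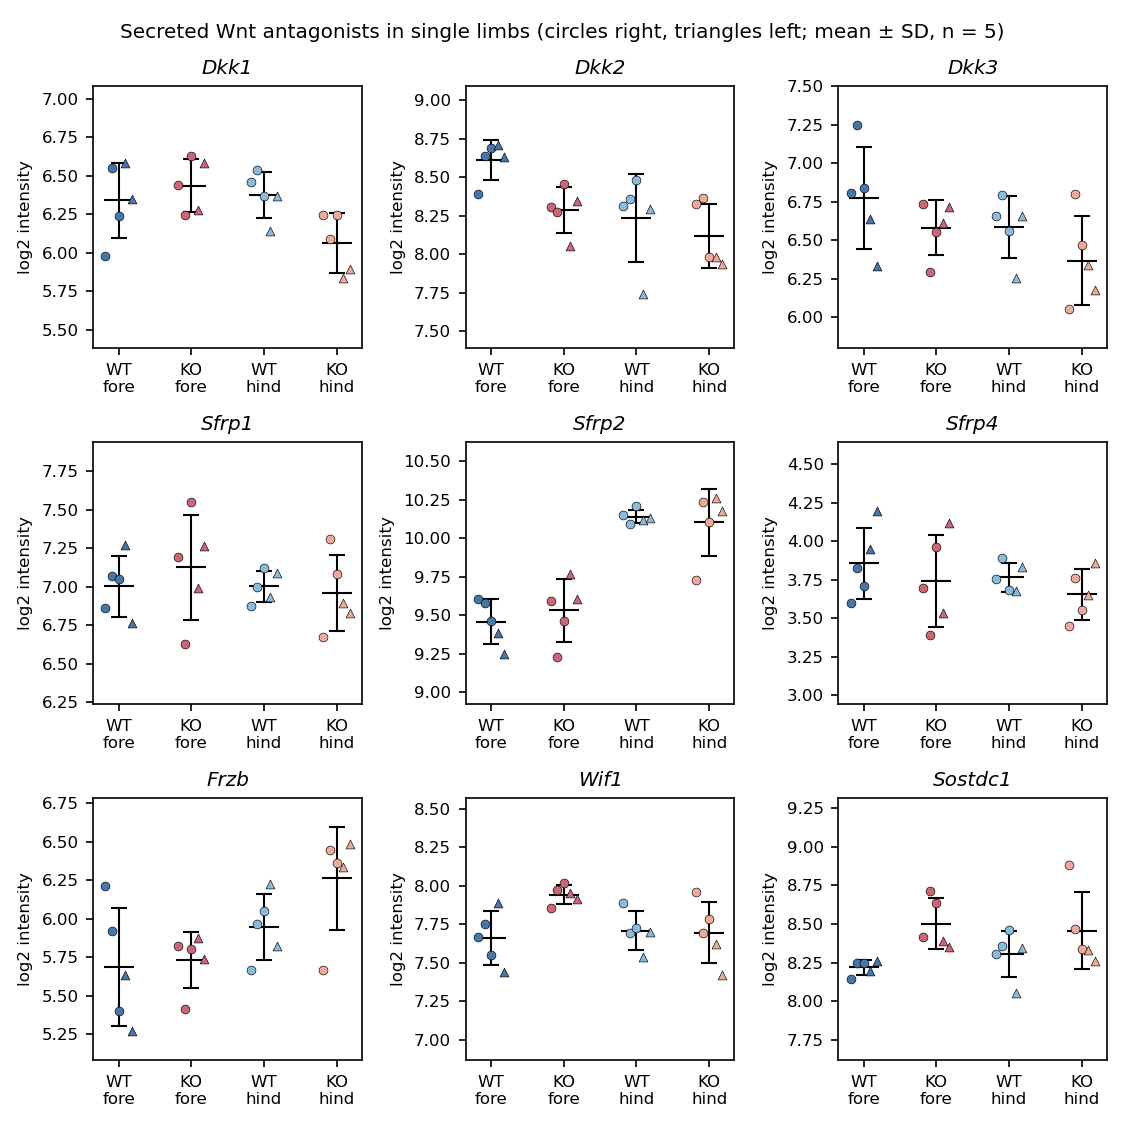
Log2 intensity (y axis) of each of the 9 antagonists in the 4 groups (x axis; WT wild type, KO knockout, fore forelimb, hind hindlimb), 1 point for each limb, with circles for right and triangles for left limbs and bars for the mean ± SD of 5 arrays. Each panel spans the same number of log2 units; the Sfrp2 hindlimbs lie above the forelimbs except for 1 knockout hindlimb at 9.73, and the other genes overlap between most groups.

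Frzb, a frizzled-related antagonist known from cartilage and joint-forming mesenchyme, also had higher means in hindlimbs, with a wider spread. Its log2 intensities were 6.21, 5.92, 5.40, 5.63 and 5.27 in wild-type forelimbs and 5.67, 5.97, 6.05, 6.23 and 5.82 in wild-type hindlimbs. These groups overlap over most of their range. In knockouts they were 5.83, 5.42, 5.80, 5.87 and 5.74 in forelimbs and 5.67, 6.45, 6.36, 6.34 and 6.49 in hindlimbs, so that 4 of 5 hindlimbs lay above all forelimbs and replicate 6 did not. The hindlimb minus forelimb difference was 0.26 in wild type (SE 0.164, adjusted p = 0.462) and 0.53 in knockouts (SE 0.164, 95% interval 0.19 to 0.87, adjusted p = 0.201), and neither passed. Without knockout hindlimb replicate 6 the knockout difference was 0.68 and passed (adjusted p = 0.0385).

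Averaged over both genotypes, in the test added after the values were seen, Frzb was higher in hindlimbs by 0.39 (SE 0.116, limma adjusted p = 0.0463). Sfrp2 and Frzb were thus 2 of 9 antagonists called higher there, against 1.97% of all genes called higher and 5.96% called in either direction. The Frzb call was held narrowly: it remained in 5 of the 20 fits that left out 1 array (wild-type forelimb 1 or 2, wild-type hindlimb 6, knockout forelimb 4 or knockout hindlimb 6), and adjusted p over the 20 ranged from 0.00862 to 0.0976. It was lost with sex as a covariate (adjusted p = 0.0596), and with the muscle mean as a covariate the difference was 0.15 (adjusted p = 0.986). The cartilage list, where Frzb is known to be active, had 0 of 15 genes called by limma in any of the comparisons. Over both genotypes 4 of 15 had an unadjusted p under 0.05 for limb type, as had 21% of all genes. Of 11 joint genes, 1 was called higher and 2 lower for limb type over both genotypes, against 1.97% and 3.99% of all genes. For genotype over both limb types 1 of the 11, Col3a1, was called lower, against 1.57% of all genes. The part of these tissues in the Frzb difference was not tested. The genotype difference in Frzb was 0.04 in forelimbs and 0.31 in hindlimbs (SE 0.164 each), and neither passed (adjusted p = 0.943 and 0.915). In hindlimbs 4 of 5 knockouts lay above all wild types and replicate 6 lay level with the lowest of them; without it the difference was 0.46 (adjusted p = 0.459).

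Knockout hindlimb replicate 6 stood apart in tissue content. Among the 5 knockout hindlimbs it had the highest mean of 13 epidermal genes, 7.57 against 6.59 to 6.96. It also had the lowest means of the cartilage and joint lists, 5.87 and 6.81, beside the lowest Sfrp2, Frzb, Dkk3, Sfrp1 and Sfrp4. Its Sostdc1, Wif1 and Dkk1 were the highest of the group. The part of tissue content in these values was not tested.

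Sfrp1 and Sfrp4, the remaining frizzled-related antagonists of the 9, showed no difference that passed the test. Sfrp1 ran from 6.63 to 7.55 over all 20 arrays, its group means lay between 6.96 and 7.12, and none of its differences exceeded 0.17 in size. Sfrp4 was dim, from 3.39 to 4.19, below the median of every array, and its differences did not exceed 0.16. No detection calls were used here, so whether Sfrp4 rose above background cannot be said from these values.

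Dkk2, a co-receptor antagonist of the Dickkopf family, had lower means in hindlimbs and in knockouts, but no difference passed the test. Its log2 intensities were 8.39, 8.64, 8.69, 8.71 and 8.63 in wild-type forelimbs and 8.31, 8.35, 8.48, 7.74 and 8.29 in wild-type hindlimbs. In knockouts they were 8.30, 8.27, 8.46, 8.05 and 8.35 in forelimbs and 8.33, 8.36, 7.98, 7.98 and 7.94 in hindlimbs. The wild-type forelimbs were the highest group, and every pair of groups next to each other in the order of means overlapped. The difference between hindlimbs and forelimbs was -0.37 in wild type (SE 0.117, adjusted p = 0.0871), -0.17 in knockouts (SE 0.117, adjusted p = 0.703) and -0.27 over both genotypes (SE 0.0829, 95% interval -0.44 to -0.10, adjusted p = 0.0544).

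For genotype, Dkk2 differed by -0.32 in knockout forelimbs (SE 0.117, adjusted p = 0.220), where 4 of 5 arrays lay below all wild types, and by -0.12 in knockout hindlimbs (SE 0.117, adjusted p = 0.984). Over both limb types the difference was -0.22 (SE 0.0829, 95% interval -0.39 to -0.05, adjusted p = 0.197). Whether Dkk2 passed depended on single arrays and on the processing. Without wild-type hindlimb replicate 9, its lowest value, the genotype difference over both limb types passed (adjusted p = 0.0263). The wild-type limb-type difference passed without wild-type forelimb replicate 1 (adjusted p = 0.0499) or wild-type hindlimb replicate 8 (adjusted p = 0.0449). The difference over both genotypes passed without any 1 of wild-type forelimb 1, wild-type hindlimb 8, knockout forelimb 4, knockout hindlimb 6 or knockout hindlimb 7. With all arrays kept it also passed in 4 of 12 other settings: log2(value + 16) (adjusted p = 0.0435), a mean log2 of at least 5 (0.0345), side as a covariate (0.0377) and array weights (0.0203). Wild-type hindlimb replicate 9 was the lowest of its group in the muscle list (7.09 against 7.33 to 7.60), the tendon list (6.51 against 6.85 to 6.98) and the osteoblast list (5.61 against 5.80 to 6.03), and also in the joint, epidermal, endothelial and macrophage lists. The part of tissue content in its Dkk2 value was not tested.

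Dkk2 followed the same order of group means as the muscle, osteoblast, macrophage and epidermal lists and a list of 7 neuron and Schwann cell genes. Dkk2 averaged 8.61 ± 0.128, 8.29 ± 0.147, 8.24 ± 0.285 and 8.12 ± 0.208 in wild-type forelimbs, knockout forelimbs, wild-type hindlimbs and knockout hindlimbs, and the muscle list averaged 8.16 ± 0.242, 7.74 ± 0.180, 7.41 ± 0.207 and 7.37 ± 0.163. In the same groups the osteoblast list averaged 6.70, 6.01, 5.87 and 5.75, and the macrophage list 5.38, 5.09, 5.07 and 4.96. In knockout forelimbs 4 of 9 osteoblast genes, 2 of 9 macrophage genes, 3 of 16 muscle genes and 2 of 7 neuron and Schwann cell genes were called lower. Of the epidermal genes 0 of 13 were. With the muscle mean as a covariate the wild-type limb-type difference in Dkk2 was 0.12 and the forelimb genotype difference -0.04, neither past the threshold (adjusted p = 0.999 and 0.992). That fit called 11 genes of all tested for limb type in wild type, where the muscle mean did not overlap between forelimbs and hindlimbs. Tendon genes also differed between these groups: their mean was 7.51 ± 0.133 in wild-type and 6.68 ± 0.150 in knockout forelimbs, with 4 of 10 called lower. The part of tendon, osteoblasts, macrophages, epidermis, neurons and Schwann cells in the Dkk2 values was not tested. That of muscle cannot be told apart from limb type in wild type.

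Dkk1, the co-receptor antagonist that limits Wnt signalling in the distal limb, was lowest in knockout hindlimbs. Its log2 intensities there were 6.25, 6.09, 6.24, 5.83 and 5.89, against 6.44, 6.24, 6.63, 6.28 and 6.58 in knockout forelimbs. Wild-type forelimbs read 5.98, 6.55, 6.24, 6.58 and 6.35, and wild-type hindlimbs 6.46, 6.54, 6.37, 6.14 and 6.37. The knockout hindlimbs had the lowest mean but overlapped each other group, and wild-type forelimb replicate 1 also read low, at 5.98. The hindlimb minus forelimb difference was -0.37 in knockouts (SE 0.113, adjusted p = 0.188) and 0.04 in wild type, and the knockout minus wild-type difference was -0.31 in hindlimbs (SE 0.113, adjusted p = 0.601) and 0.10 in forelimbs. The change of the genotype effect between limb types was -0.41 (SE 0.160, unadjusted p = 0.0181, limma adjusted p = 1.00).

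Dkk3, a divergent Dickkopf protein whose action on Wnt signalling is less settled, averaged 6.77 ± 0.333, 6.58 ± 0.177, 6.58 ± 0.202 and 6.37 ± 0.290 in the groups in the same order as for Dkk2. Its differences over both limb types and over both genotypes were each -0.20 (SE 0.104, adjusted p = 0.375 and 0.274). Neither passed.

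Sostdc1, which binds both the Lrp co-receptors and BMPs and is known from epithelia, was highest in knockout forelimbs. Its log2 intensities were 8.15, 8.25, 8.25, 8.20 and 8.26 in wild-type forelimbs and 8.41, 8.72, 8.64, 8.39 and 8.35 in knockout forelimbs. The 5 knockout forelimbs all lay above the 5 wild-type forelimbs, a separation seen in the same direction in 0.813% of all genes. The difference of 0.28 (SE 0.101, 95% interval 0.07 to 0.49) did not pass over all genes (adjusted p = 0.208). In hindlimbs Sostdc1 read 8.31, 8.36, 8.46, 8.05 and 8.34 in wild types and 8.88, 8.47, 8.34, 8.33 and 8.26 in knockouts, which overlap (difference 0.15, SE 0.101, adjusted p = 0.946). Over both limb types the difference was 0.22 (SE 0.0712, 95% interval 0.07 to 0.37, adjusted p = 0.131).

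No change with genotype was called in the epidermal list. Its mean was 7.21 ± 0.184 in wild-type and 7.13 ± 0.260 in knockout forelimbs, and 0 of its 13 genes were called for genotype by limma in either limb type, with 0 also at an unadjusted p under 0.05. Sex differed between the forelimb groups, and with male arrays only the Sostdc1 difference in forelimbs was 0.16 (adjusted p = 0.811). With sex as a covariate it was 0.26 (adjusted p = 0.376).

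Wif1, which binds Wnt ligands through its own WIF domain, also read highest in knockout forelimbs. Its log2 intensities were 7.67, 7.75, 7.55, 7.89 and 7.44 in wild-type forelimbs and 7.85, 7.97, 8.02, 7.96 and 7.92 in knockout forelimbs. The knockout forelimbs were close together, and 4 of 5 lay above all wild types. The difference of 0.28 (SE 0.0914, adjusted p = 0.157) did not pass, and with male arrays only it was 0.22 (adjusted p = 0.731). In hindlimbs it was -0.01 (SE 0.0914), with wild types from 7.54 to 7.89 and knockouts from 7.42 to 7.96. Among knockouts, hindlimbs differed from forelimbs by -0.25 (SE 0.0914, adjusted p = 0.331), with 4 of 5 below all forelimbs. The genotype effect in hindlimbs minus that in forelimbs was -0.30 (SE 0.129, unadjusted p = 0.0322, adjusted p = 1.00).

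For genotype as a whole, limma called 0 of the 9 antagonists over both limb types, in forelimbs and in hindlimbs, where 2.04%, 1.27% and 0.231% of all genes were called. At an unadjusted p under 0.05 there were 3, 3 and 1 antagonists, against 14.7%, 13.2% and 5.75% of all genes. None of the 9 passed for the change of the genotype effect between limb types, where 0.0201% of all genes were called and 2 antagonists, Dkk1 and Wif1, had an unadjusted p under 0.05 against 3.63% of all genes. The median change of the 9 was 0.02 over both limb types, 0.08 in forelimbs and -0.04 in hindlimbs, beside medians of -0.00, 0.00 and -0.00 over all genes. The 95% intervals leave room for a genotype difference of up to 1.48-fold in forelimbs (Dkk2) and 1.58-fold in hindlimbs (Frzb).

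Left and right limbs did not differ in any antagonist by the test, with 0% of all genes called by limma and 9.48% at an unadjusted p under 0.05. Sostdc1 was lower in left limbs by 0.16 (SE 0.0650, adjusted p = 0.440) and Dkk2 by 0.17 (SE 0.0781, adjusted p = 0.510), the 2 antagonists with an unadjusted p under 0.05. The widest interval allowed a 1.31-fold difference (Dkk3).

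**Figure D2:**
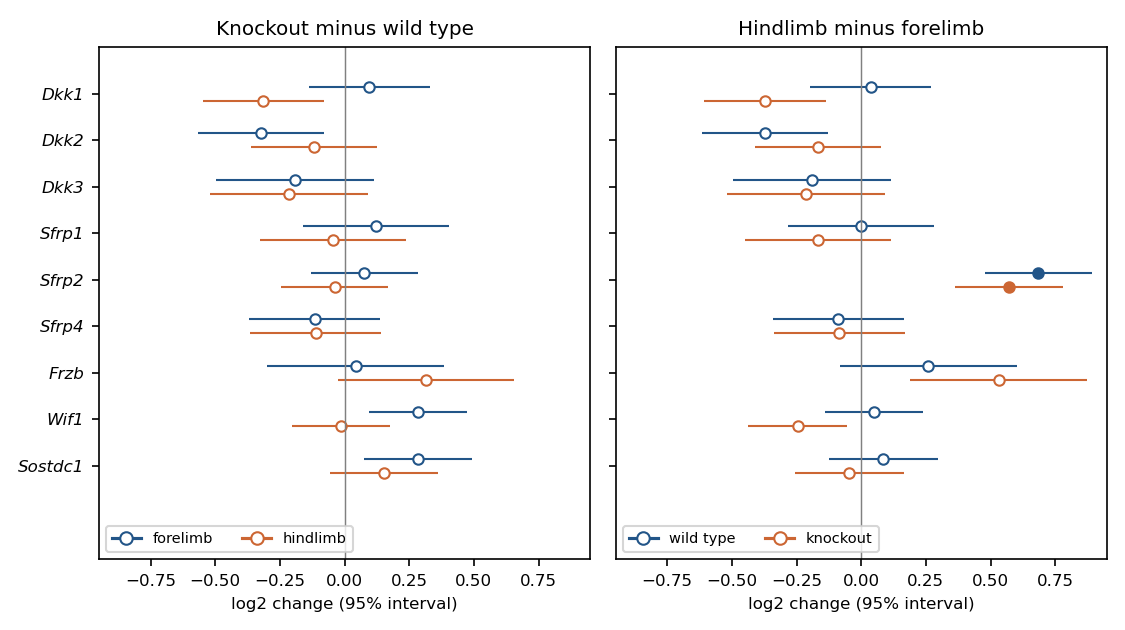
Log2 change (x axis) of each antagonist (y axis) with its 95% interval, for knockout minus wild type in forelimbs and hindlimbs (left) and for hindlimb minus forelimb in wild type and knockout (right); filled points passed an adjusted p of 0.05. Only Sfrp2 has filled points, at 0.68 and 0.57, and no genotype difference is filled.

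Of the 64 other Wnt pathway genes measured, 2 were called higher and 11 lower in hindlimbs over both genotypes, against 1.97% and 3.99% of all genes. In knockouts over both limb types 0 were higher and 4 lower, against 0.466% and 1.57% of all genes. They are from lists of the pathway's other inhibitors, ligands, receptors and targets. Of 15 other secreted or membrane inhibitors, among them Sfrp5 and Dkk4, 1 was called higher and 3 lower in hindlimbs over both genotypes. The average over both genotypes, used for limb type in all these lists, was added after the values were seen. In wild type alone only Igfbp4 of the 15 was called, and in knockouts alone none was. Sost, the relative of Sostdc1 that binds the Lrp co-receptors, rose by 0.32 (SE 0.0641, adjusted p = 0.00412). Igfbp4 fell by 0.21 (SE 0.0421, adjusted p = 0.00450), and Kremen1 and Kremen2, the receptors through which Dkk1 and Dkk2 act on Lrp6, fell by 0.24 (SE 0.0571, adjusted p = 0.0139) and 0.25 (SE 0.0739, adjusted p = 0.0468). Igfbp4 was the inhibitor called for genotype, lower in knockouts over both limb types by 0.24 (SE 0.0421, adjusted p = 0.00226). With array medians centred, 2 of the 15 were higher and 2 lower in hindlimbs, without Kremen2 (adjusted p = 0.0608). The median change of this list was -0.08 between limb types and -0.09 for genotype, against 0.01 and -0.00 over all genes.

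Among 19 Wnt ligands, Wnt11 was lower in hindlimbs over both genotypes (log2 change -0.27, SE 0.0404, adjusted p = 0.000214) and in knockouts over both limb types, and none was higher. Of 4 R-spondins, which amplify Wnt signals through Lgr receptors, Rspo3 was lower in hindlimbs by 0.26 (SE 0.0541, adjusted p = 0.00598) and also in knockouts. For limb type in each genotype alone, Wnt11 was called in both and no R-spondin in either. Of 19 receptors and co-receptors, 5 were lower in hindlimbs over both genotypes and none higher, against 1.97% higher and 3.99% lower of all genes. For genotype limma called 0 of the 19, and 3 had an unadjusted p under 0.05, close to the 14.7% of all genes. Lgr5, an R-spondin receptor, fell by 0.71 (SE 0.0875, adjusted p = 3.16e-05), in a range across arrays from 6.08 to 6.73 in forelimbs to 5.39 to 6.06 in hindlimbs. The frizzled receptors Fzd5, Fzd9 and Fzd1, and also Lrp4, fell by 0.31 (adjusted p = 5.75e-05), 0.23 (adjusted p = 0.0120), 0.18 (adjusted p = 0.0272) and 0.18 (adjusted p = 0.0490). Taking each genotype alone, Lgr5 and Fzd5 were called in both, Fzd9 and Lrp4 only in wild type, and Fzd1 in neither. With array medians centred 3 of the 19 were lower, without Fzd1 and Lrp4 (adjusted p = 0.0504 and 0.0711). Lrp5 and Lrp6, the co-receptors that Dkk1 and Dkk2 bind, differed by -0.06 and -0.02 and did not pass.

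Of 7 target and feedback genes, Nkd2, a feedback inhibitor, rose by 0.20 in hindlimbs (SE 0.0566, adjusted p = 0.0353) and Myc fell by 0.40 (SE 0.0807, adjusted p = 0.00388). Myc was also lower in knockouts, by 0.32 (SE 0.0807, adjusted p = 0.0424). Axin2 and Lef1, which follow beta-catenin activity in many tissues, differed by -0.10 each between limb types and did not pass (adjusted p = 0.236 and 0.222), nor did they for genotype (0.09 and -0.02, adjusted p = 0.445 and 0.910).

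For some of these genes the average covers unlike values in the 2 genotypes. Nkd2 differed between limb types by 0.34 in wild type and 0.06 in knockouts, Fzd9 by -0.38 and -0.08, and Lrp4 by -0.30 and -0.06; each was called in wild type and not in knockouts. The difference between genotypes itself did not pass for Nkd2, Fzd9 or Lrp4 (unadjusted p = 0.0225, 0.0111 and 0.0361, limma adjusted p = 1.00 each).

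Some of the limb-type calls were held narrowly. Leaving out 1 array at a time kept the limb-type call in 6 of 20 fits for Kremen2, 6 for Lrp4, 11 for Nkd2 and 15 for Fzd1, and the genotype call of Myc in 8 of 20. The other limb-type calls named, of Sost, Igfbp4, Kremen1, Wnt11, Rspo3, Lgr5, Fzd5, Fzd9 and Myc, were kept in all 20. Of 12 other settings, 11 kept the limb-type call of Lgr5 and of Fzd5. Those of Sost, Igfbp4, Kremen1, Wnt11, Rspo3, Fzd9, Nkd2 and Myc were each kept in 10. Fzd1 kept its call in 9, Kremen2 in 7 and Lrp4 in 5. The genotype call was kept in 12 for Wnt11 and 8 for Myc. It was kept in 10 for Igfbp4 and Rspo3 (limma adjusted p up to 0.222 and 0.503). With the muscle mean as a covariate none of the 13 limb-type calls passed, in a fit that called 32 of all genes against 1188 without it. Lgr5 differed by -0.23 in that fit (limma adjusted p = 0.879).

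**Figure D3:**
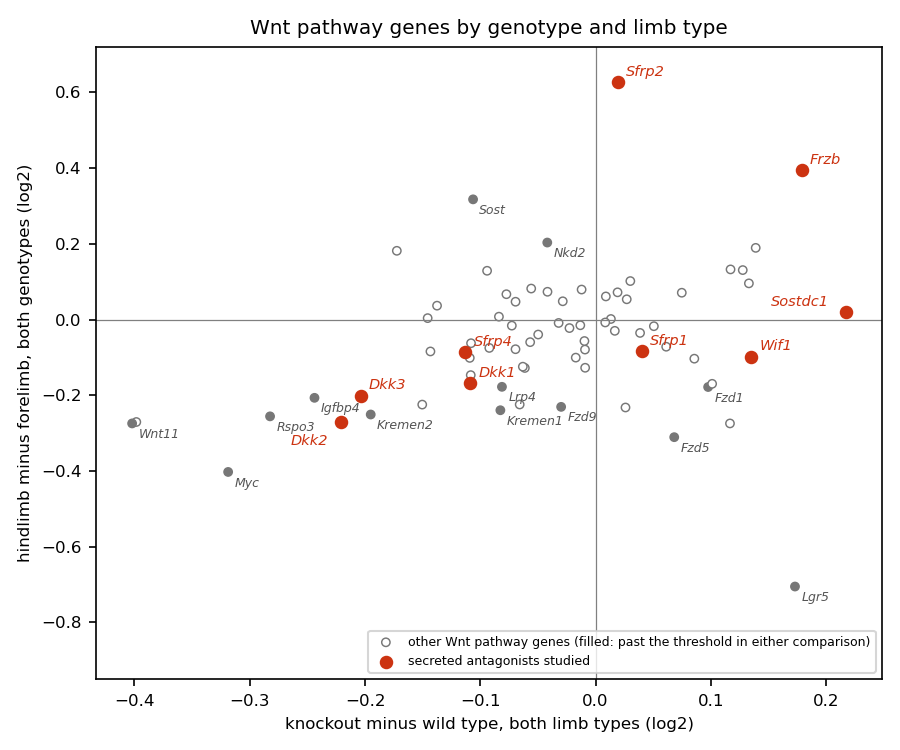
Log2 difference between knockout and wild type over both limb types (x axis) and between hindlimb and forelimb over both genotypes (y axis) for the 9 antagonists (red) and 64 other Wnt pathway genes (grey; filled and named where either difference passed the test). Sfrp2 lies near 0 on the genotype axis at 0.02 and highest on the limb-type axis at 0.63, while Lgr5 lies lowest on the limb-type axis.

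The genes most like each antagonist over the 20 arrays were found by Pearson correlation of log2 intensity among 10971 genes with a mean of at least 5. These values are descriptions, since groups, sex and tissue content are shared by all arrays. Sfrp2 was most like Tbx4 (r = 0.962), Plk2 (0.959) and Pitx1 (0.906). After each group's mean was removed, Tbx4 kept a correlation of 0.863 and Plk2 of 0.851, while Pitx1 had 0.194. The genes most like Sfrp2 were then Grik5 (0.907), Nr2f2 (0.905) and Ebf1 (0.900). Knockout hindlimb replicate 6 was the lowest of its group in Tbx4 (7.28 against 7.71 to 7.80), as it was in Sfrp2. Dkk2 was most like Aspn (0.932), Lox (0.921) and Fhl1 (0.921), the first 2 of which encode matrix proteins of connective tissue. Frzb was most like Prdm16 (0.862), Dact1 (0.849) and Lbp (0.845). Sostdc1 was most like the epithelial adhesion gene Epcam (0.889, and 0.899 with group means removed), beside Cyp1b1 (0.856) and Tmem159 (0.822).

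For the remaining antagonists the likeness was of similar or lower size. Dkk1 was most like Plin3 (0.827), Rdh10 (0.788) and Arsi (0.783). Dkk3 was most like Ddost (0.921), Fstl1 (0.892) and Mfap2 (0.886). Wif1 was most like Sdc2 (0.842), Klhl5 (0.820) and Dbx2 (0.798). Sfrp1 was most like Ctdsp2 (0.850), Stau1 (0.804) and Man1b1 (0.784), and Sfrp4 most like Arap3 (0.795), Naprt (0.781) and Pomgnt2 (0.760).

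The antagonists also varied with each other within groups. Over 36 pairs, correlated as deviations from group means over 20 arrays with 100000 permutations within groups, 5 pairs passed by Pearson's r after Benjamini-Hochberg adjustment and none by Spearman's rho, whose lowest adjusted p was 0.0805. Sfrp2 and Frzb varied together (r = 0.771, permutation p = 0.000900, adjusted 0.0299, and rho = 0.684, permutation p = 0.00275). Their r was 0.618 without the 2 arrays farthest from the median deviation of Sfrp2. For the pairs that follow, the 2 arrays left out were those farthest in Dkk2, Dkk1, Frzb and Dkk3, in that order. Arrays extreme only in the other gene of a pair were kept. Dkk2 rose with Sostdc1 (r = 0.705, rho = 0.668, 0.632 without 2 arrays) and with Dkk1 (r = 0.645, rho = 0.603, 0.510 without 2 arrays), each with an adjusted permutation p of 0.0299 for r. Frzb ran against Sostdc1 (r = -0.650, rho = -0.558, -0.483 without 2 arrays, adjusted permutation p = 0.0354 for r). Dkk3 and Sfrp2 gave r = 0.626 (rho = 0.471, 0.566 without 2 arrays, adjusted permutation p = 0.0499 for r). Arrays that share an embryo, if any, would not be independent in these tests.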

How the data were processed

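Per the submitters' processing notes the authors made the deposited values with RMA; neither its version nor the annotation or genome build is given in the sources used here. The deposited unit is linear intensity (1.65 to 13033, array medians 28.6 to 31.8), of which log2 was taken with no pseudocount. Of 35512 probe sets, 1 was empty, 21789 carried 1 gene symbol (21698 named by Entrez identifier, 3 by accession with RefSeq genes on GRCm38.p6, 88 by the platform's name), 1621 had more than 1 symbol and 12101 had no entry; both of these kinds were left out. The probe set with the highest mean stood for each of 19936 genes (1001 had more than 1). The number of arrays limits the precision.

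Group means of all 20 arrays were fitted with limma 3.58.1 (R 4.3.3; lmFit, contrasts.fit, eBayes), with Benjamini-Hochberg adjustment over all genes and a threshold of 0.05; side was added for left minus right. Numbers of arrays above or below count those beyond the other group's range. Tables used Python 3.11.15, numpy 2.4.6, pandas 2.3.3 and scipy 1.17.1. The fit was tested on simulated data. Members, gene lists and comparisons were chosen with earlier results of these data known. The genes named were all 9 antagonists, genes that check the labels, up to 4 genes past the threshold from each other Wnt list (with Lrp5, Lrp6, Axin2 and Lef1, picked after their values were seen) and the 3 genes most like each antagonist. Tiki1 and Tcf7 were not measured here. Alternatives were centred array medians, log2(value + 16), a mean log2 of at least 5, mean of probe sets, male arrays, sex, side or the muscle list as covariate, blocks, only the groups compared, array weights, a trended robust prior and leaving out each array.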

Additional observations from a re-analysis of the deposited data

Results flagged for a closer look

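In 4 of 36 sets of 1 antagonist in 1 group of 5 arrays, the lowest array lay far from the rest by Dixon's ratio of gap to range (critical value 0.71); chance gives about 1.8 such sets. Dkk2 was low in wild-type forelimb replicate 1, at 8.39 (ratio 0.759), and in wild-type hindlimb replicate 9, at 7.74 (ratio 0.747). Knockout hindlimb replicate 6 was low in Sfrp2, at 9.73, just past the critical value, and in Frzb, at 5.67 (ratio 0.815). No limb-type difference in a genotype effect passed the test for these genes.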

How the results depend on the processing

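Of 3402 values of single genes under the alternatives, 3245 kept their side of the threshold in the same direction or stayed within 1 SD, 122 calls were lost, 16 were gained and 0 called values changed sign. The others, 19 values that had not passed, moved by more than 1 SD. Sfrp2 kept its call in all 20 fits without 1 array in each limb-type comparison (adjusted p at most 0.00236 in wild type and 0.0273 in knockouts).

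The number of antagonists called for genotype over both limb types went from 0 to 1 with array weights (Dkk2, adjusted p = 0.0456) and ranged from 0 to 1 without single arrays. For hindlimb minus forelimb in wild type, 1 antagonist became 0 with muscle as a covariate and 2 with array weights (Dkk2, adjusted p = 0.0377), with 1 to 2 without single arrays. In knockouts, 1 became 0 with male arrays only, with the muscle list and with only the groups compared, with 1 to 2 without single arrays. Over both genotypes, 2 became 1 with male arrays, sex, the replicate block (Frzb, adjusted p = 0.0754), the random block or the trended robust prior, 0 with the muscle list (Sfrp2 0.53, adjusted p = 0.209), and 3 with log2(value + 16), a mean log2 of at least 5 or array weights, each adding Dkk2, with 1 to 3 without single arrays. With side as a covariate it stayed at 2, with Dkk2 in place of Frzb.

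Samples that share a number in the labels were not clearly alike in their deviations from the group means. Of pairs of wild type and knockout with the same title number, 4 of 10 had a correlation over 0.1 (from -0.313 to 0.256). So had 4 of 10 pairs of forelimb and hindlimb with the same side and number (from -0.225 to 0.234). Such weak correlations cannot settle whether limbs share an embryo. The replicate block changed no other count of antagonists. Counts over all genes varied more than 1.5-fold: genotype over both limb types 406 (67 with male arrays, 768 with array weights, 260, 266 and 269 without wild-type hindlimb 7, wild-type forelimb 3 or wild-type hindlimb 10), forelimb 253 (37 with male arrays, 124 without wild-type forelimb 5 or knockout forelimb 4, 133, 136 and 164 without wild-type forelimb 4, wild-type forelimb 3 or knockout forelimb 2, 436 without wild-type forelimb 1), hindlimb 46 (13 with male arrays, 82 with array weights), change of the effect 4 (0 to 10), limb type in wild type 650 (11 with the muscle list, 1260 with array weights, 311 and 354 without wild-type hindlimb 9 or 6, 340, 374 and 381 without wild-type forelimb 5, 3 or 4), in knockouts 123 (13 with male arrays, 210 with array weights, 60 and 68 without knockout forelimb 3 or 1, 70, 73 and 79 without knockout hindlimb 10, 8 or 9) and over both 1188 (32 with the muscle list, 2159 with array weights). Centring array medians raised the share of higher calls from 22.9% to 45.1% for genotype over both limb types, from 19% to 32.3% in forelimbs, from 23.7% to 34.1% for limb type in wild type and from 33% to 43.3% over both genotypes. The cause of these changes was not tested.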
